A study of Homo sapiens with 9 samples.

Results

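The genes described here are those whose normalized count was higher in both *EPCART*-del clones than in the WT clone. They were chosen by measured values. A gene was kept when each of the 6 values in the deletion clones was at least 30 and at least 2 times the highest of the 3 WT values. Symbols beginning with NECTIN, GSTM, PCDH or UGT2B were left out. The rule kept 53 of 19984 genes, or 0.265% of the table, and 13677 genes had at least 30 in every deletion library. The 2 genes that passed the thresholds and were left out by name were NECTIN3 and PCDH20.

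*EPCART* is a long noncoding RNA of prostate cancer, and LNCaP is a cell line from a human prostate cancer. The clones del-4 and del-56 carry a CRISPR-Cas9 deletion of the promoter and first exons of *EPCART*, and the WT clone keeps the gene. Cultures of all clones were grown for 48 h in normal medium with serum and no further treatment, and polyA RNA was sequenced from 3 cultures of each clone. Each genotype was thus measured in 1 clone (WT) or 2 clones (deletion), so that the deletion and the ordinary differences between clones cannot be told apart, and p-values measure only the spread between cultures of a clone. *EPCART* itself, being noncoding, was not analysed here. The values are read counts divided by 1 size factor per library, and they are called normalized counts below.

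The libraries held between 91074556 and 118877134 reads on genes. The summed level of 9 markers of prostate luminal cells, KLK3 among them, was high in all 9 libraries, at 334756 to 351071 normalized counts for WT, 312982 to 317376 for del-4 and 294967 to 302745 for del-56. The order of the clones in this sum depends on which markers it holds, and not all markers of the list are in it. Of those summed, limma, edgeR and DESeq2 called 0 against WT at an adjusted p under 0.05 and a log2 difference beyond 1. An unadjusted p under 0.05 (limma) was reached by 7 for del-4, 6 lower and 1 higher than WT. For del-56 it was reached by 5, 4 lower and 1 higher. Sums of the other lists were low beside it, and some differed between the clones. The 6 fibroblast markers summed to 1061 to 1142 for WT, 1240 to 1450 for del-4 and 1354 to 1521 for del-56, so that every deletion library was above every WT library. COL1A1 made up most of this sum, 3 of the 6 stayed under 10 in all libraries, and LUM was called higher in del-56 (29.3 against 129, log2 2.20, SE 0.331, adjusted p = 6.4e-05, limma). The 4 endothelial markers, nearly all VWF with CDH5 at 0, summed to 590 to 618 for WT, 288 to 329 for del-4 and 512 to 723 for del-56. The 5 leukocyte markers, nearly all CD68 with CD3E at 0, summed to 493 to 523 for WT, 557 to 584 for del-4 and 523 to 569 for del-56, and the 4 basal markers to 19.4 to 64.3 over all libraries. The part of these differences in the results was not tested. A sum of 9 neuroendocrine markers was 2479 to 2628 in del-4, and 1754 to 1893 and 1765 to 1929 in the del-56 and WT clones. ENO2 made up most of this sum, with means of 2356 for del-4, 1619 for del-56 and 1627 for WT. Of the 9 markers, 4 stayed under 10 in all libraries. SYP had lower means in the deletion clones, at 126 for del-4 and 147 for del-56 against 192 for WT, where it spread from 145 to 236. In bulk RNA, more cells expressing a gene and more RNA per cell cannot be told apart.

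Many of the genes have roles best known outside the prostate. Synaptotagmins, RIM proteins and neurofilaments serve vesicle release and the cytoskeleton of neurons, while netrins, plexins, ephrin receptors and teneurins guide growing axons and hold cells together. BMP7, LTBP1, FGFR2, IGFBP5, R-spondins and glypicans belong to growth factor pathways that shape embryonic tissue, where secreted ligands are held, presented or blocked at the cell surface before receptors pass on the signal. T-box proteins are transcription factors of organ formation.

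**Figure D1:**
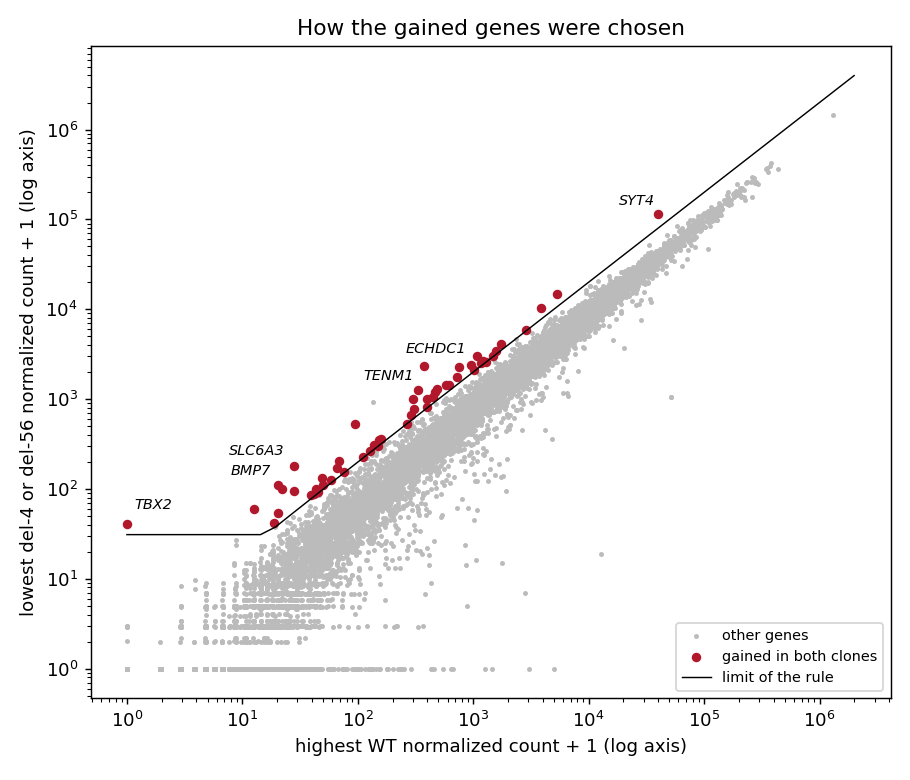
Each point is 1 gene of the table. The horizontal axis is its highest WT value and the vertical axis its lowest value in the 6 deletion libraries, both as normalized count plus 1 on log axes. The black line is the limit of the rule, and red points are the 53 genes kept; TBX2 stands alone at a WT value of 0, and SYT4 has the highest level.

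Because the rule used the values of both deletion clones and WT, the levels against WT are given as a description, without a test. Over the 52 genes with WT reads, the ratio of means over WT was 2.10 to 15.8 in del-4, with a median of 3.22, and 2.23 to 11.96 in del-56, with a median of 3.16. Just inside the limit of 30 were TBX2 (lowest deletion value 40.2), L1CAM (41.3) and ARC (53.4). Just outside it were TRIM58 (25.9), ERICH2 (23.0) and HBA1 (8.64). Just inside the limit of 2-fold were PALM (2.002), KCNH8 (2.01) and UBE2L6 (2.03), and just outside it were SLC27A6 (1.98), KCNK15 (1.97) and TRPM8 (1.97). Levels in WT were mostly well above 0. The highest WT value was under 20 in 5 genes, under 50 in 14 and under 100 in 19, and the other 34 genes had at least 100 in at least 1 WT library.

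TBX2, a T-box repressor known for holding back senescence genes, was the only gene near 0 in WT. It had no read in any of the 3 WT libraries. Its normalized counts were 69.1, 50.8 and 57.3 for del-4 and 66.8, 40.2 and 55.8 for del-56. The ranges of the deletion clones overlapped. Against a floor of 3 reads in each WT library, the TBX2 mean was at least 20.6-fold higher for del-4, and for del-56 at least 18.9-fold higher. TBX2 lies on chromosome 17 (GRCh38, chr17:61399843-61409466, plus strand).

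Of the other 16 T-box genes listed, limma called 1 higher and 2 lower than WT in each deletion clone, of 12 tested in del-4 and 11 in del-56. Over all genes tested, 1.89% were called higher and 2.94% lower in del-4, and 2.18% higher and 2.69% lower in del-56. TBX15 rose in both (log2 1.12, SE 0.156, adjusted p = 1.4e-05 in del-4 and log2 1.67, SE 0.154, adjusted p = 3.8e-07 in del-56, limma). TBX5, a heart and limb factor, fell from 33.2 ± 2.66 normalized counts (SD, n = 3) in WT to 5.96 ± 5.36 in del-4 and 1.31 ± 1.13 in del-56 (adjusted p = 0.0014 and 1.1e-04, limma). Without WT replicate 3, the log2 difference of TBX15 in del-4 was 0.97, inside the limit of 1. The 2 T-box genes lower in del-56 were 1 without del-56 replicate 1, del-56 replicate 2, WT replicate 2 or WT replicate 3, since EOMES lost its call, as it did by edgeR. TBX3, the closest relative of TBX2, measured 24457, 26324 and 26389 in WT against 30165, 30627 and 29699 for del-4 and 29394, 29534 and 28289 for del-56. TBX3 was abundant in every library and was not called in either clone.

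**Figure D2:**
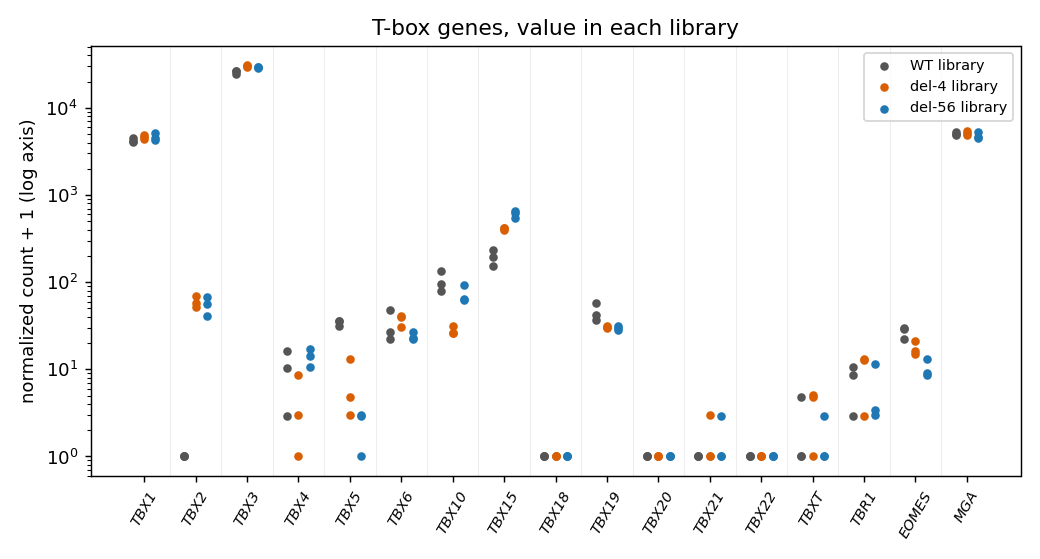
The value of each of the 17 T-box genes in each library, as normalized count plus 1 on a log axis, with 3 points for each clone. TBX2 has all 3 WT points at 0 and its 6 deletion points between 40.2 and 69.1, while TBX3 and TBX1 are high in all 9 libraries.

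ZNF311, a zinc finger gene, was the next lowest in WT, with 11.6, 9.65 and 0 against 84.5, 63.7 and 65.3 for del-4 and 68.7, 59.2 and 67.9 for del-56. One WT library had no read, and the other WT values were far below every deletion value. MAMLD1, a mastermind-like gene needed for the development of male genitalia, had 36.7, 67.6 and 56.6 for WT, 234, 305 and 323 for del-4 and 235, 227 and 206 for del-56. RBPMS2, an RNA-binding protein of smooth muscle, had 157, 140.0 and 115 in the WT clone, 717, 806 and 673 in clone del-4 and 362, 388 and 359 in clone del-56. All del-4 values of RBPMS2 exceeded all del-56 values (log2 difference 0.98, SE 0.109, adjusted p = 3.4e-06, limma). The splicing regulators NOVA1 of neurons and RBM24 of muscle were well expressed in WT already. Their means in WT, del-4 and del-56 were 915, 2199 and 2361 for NOVA1 and 1436, 3679 and 3587 for RBM24.

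**Figure D3:**
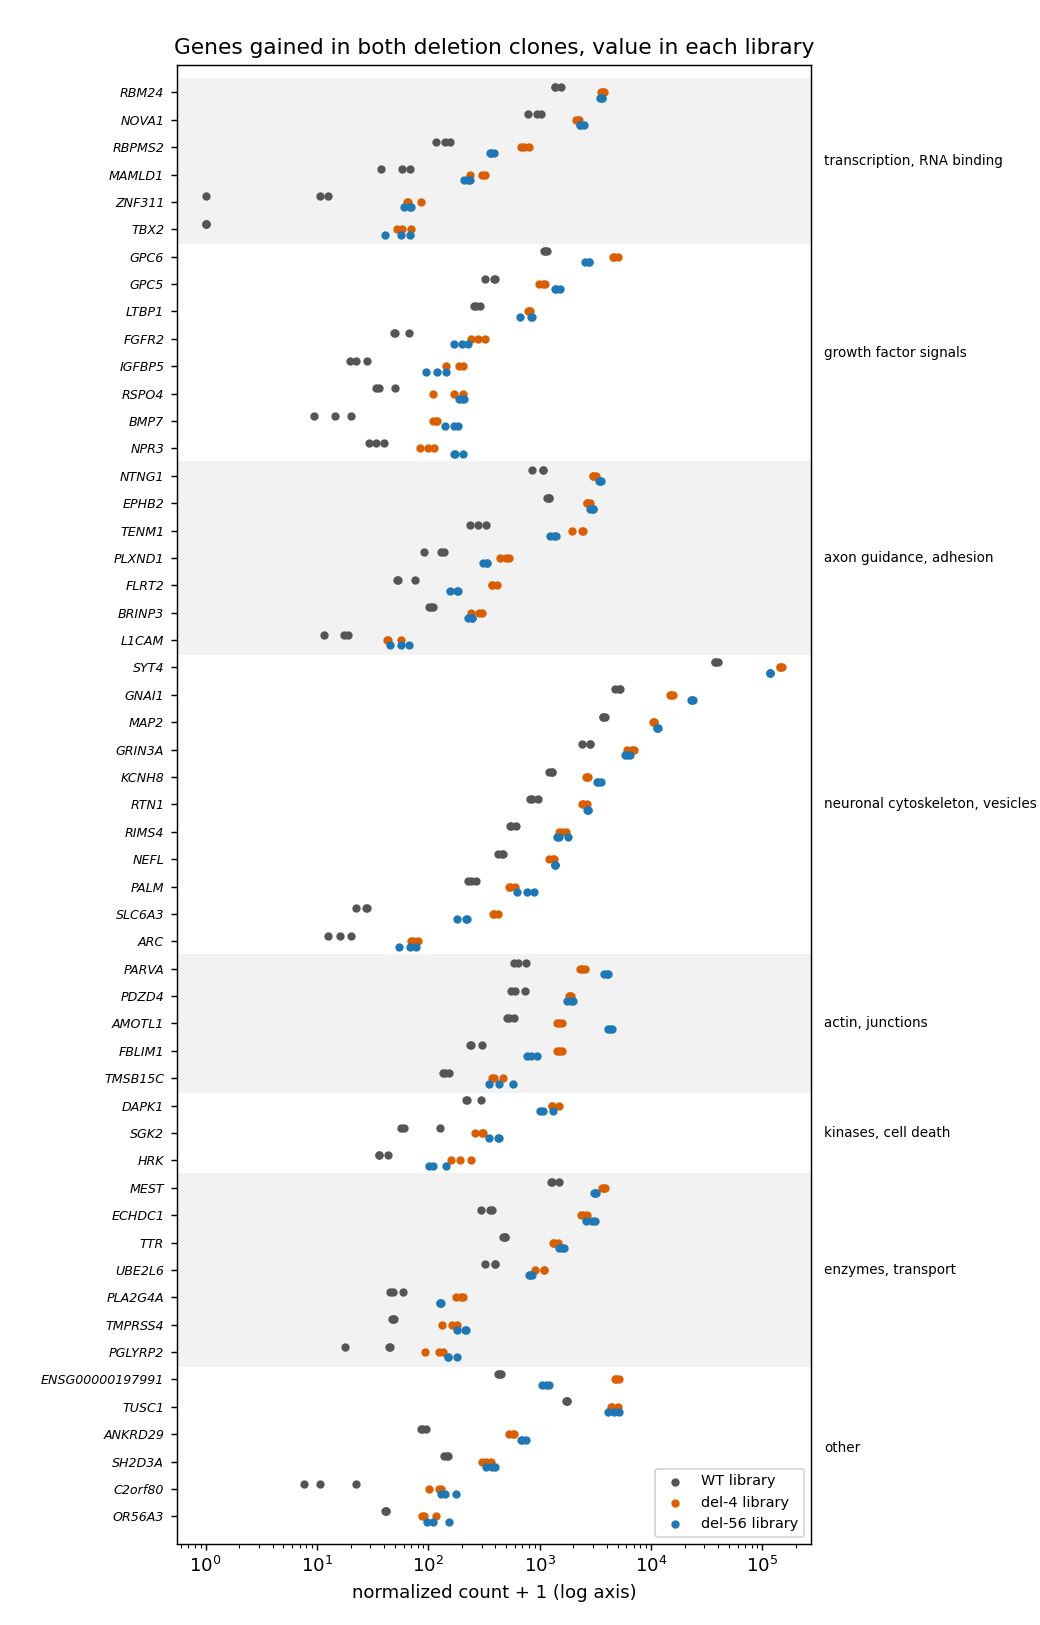
Value of each of the 53 genes in each library, as normalized count plus 1 on a log axis, with genes ordered by functional group and by mean in del-4. Grey, orange and blue points are the 3 WT, 3 del-4 and 3 del-56 libraries; every deletion point lies at or above 2 times the highest WT point, as the rule requires, and for most genes the spread within a clone is small beside that gap.

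The 8 genes of growth factor signalling had median ratios over WT of 4.18 (del-4) and 4.49 (del-56). BMP7, a secreted ligand of the TGF-beta family, was low in WT with 19.3, 13.5 and 8.48. It measured 119, 116 and 108 for del-4 and 185, 169.7 and 139 for del-56, or 8.30 and 11.96 times the WT mean. Its del-4 and del-56 values did not overlap, but the difference between the clones did not pass the test (log2 difference -0.51, SE 0.196, adjusted p = 0.076, limma). LTBP1, which stores latent TGF-beta in the matrix, had 255, 266 and 290.3 in the WT libraries, 822, 789 and 806 in those of del-4 and 835, 664 and 845 in those of del-56, and its deletion clones overlapped.

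Among the other BMP and TGF-beta genes, 2 of 24 ligands tested were called lower in del-4, and 2 of 21 were lower and 1 higher in del-56. The 1 higher was BMP3, at few counts, which was not called by edgeR or DESeq2, nor without del-56 replicate 1, del-56 replicate 2, WT replicate 2 or WT replicate 3. INHBB, a subunit of activins, fell from 785, 726 and 805 in WT to 82.6, 75.7 and 106 for del-4 and 292, 285 and 255 for del-56. Every deletion value of INHBB was below every WT value (log2 -3.13 ± 0.155 and -1.47 ± 0.112, SE, with adjusted p = 2.9e-11 and 4.3e-08, limma). Of 32 receptors, SMADs and binding proteins tested, 4 were called higher in del-4, and 1 was higher and 1 lower in del-56. TGFBR2, the type II receptor for TGF-beta, was called higher in both, with means of 29.2 ± 17.6 in WT against 109 ± 8.88 for del-4 and 69.3 ± 11.6 for del-56 (SD, n = 3; adjusted p = 1.7e-04 and 0.011, limma). Without WT replicate 1, TGFBR2 no longer passed in del-56 (log2 1.00, adjusted p = 0.052, limma), and no gene of this list was then called higher there, while the 1 lower was 2 without WT replicate 2 or any one del-56 replicate. BMPR1B, a BMP receptor, rose in del-4, with means of 859 for WT, 4702 for del-4 and 1297 for del-56, and it was higher in del-4 than in del-56 (log2 1.86, SE 0.0522, adjusted p = 4.1e-14, limma). ID4, a target of BMP signals, fell in del-56 (log2 -4.79, SE 0.628, adjusted p = 1.6e-05, limma).

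FGFR2, a receptor for fibroblast growth factors, had 65.7, 48.3 and 49.02 in the WT clone, 279, 319 and 241 in clone del-4 and 198, 225 and 169.8 in clone del-56. IGFBP5, which binds insulin-like growth factors, had 21.3, 27.02 and 18.9 in the WT libraries, 142, 203 and 187 in those of del-4 and 118, 94.4 and 143 in those of del-56. RSPO4, an R-spondin that strengthens WNT signals, had 32.9, 34.7 and 49.02 in WT against 109, 170.3 and 203 for del-4 and 198, 189 and 209 for del-56. The deletion clones overlapped for IGFBP5 and RSPO4, whereas all del-4 values of FGFR2 were above all del-56 values (log2 difference 0.50, SE 0.167, adjusted p = 0.044, limma). NPR3, the receptor that clears natriuretic peptides, had 32.9, 38.6 and 28.3 for WT, 83.6, 97.6 and 110.5 for del-4 and 169.8, 171 and 204 for del-56, and del-56 was above del-4 (log2 difference -0.90, SE 0.201, adjusted p = 0.0038, limma).

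GPC5 and GPC6, glypicans that carry heparan sulfate on the cell surface, lie 353 kb apart on chromosome 13. GPC5 had 325, 388 and 397 in the WT clone, 1112, 994 and 1067 in clone del-4 and 1370.1, 1508 and 1411 in clone del-56. GPC6 had 1159, 1110.0 and 1100.1 in the WT libraries, 5084, 4505 and 4633 in those of del-4 and 2778, 2534 and 2762 in those of del-56. The neighbours differed between the deletion clones in opposite directions, with GPC5 lower (log2 difference -0.44, SE 0.0741, adjusted p = 3.6e-04) and GPC6 higher in del-4 (log2 difference 0.82, SE 0.0554, adjusted p = 5.6e-09, limma). Of the 8 other glypicans and syndecans tested, only SDC2 was called, and it was lower in both clones, with means of 1999 in WT against 850.4 for del-4 and 533 for del-56 (adjusted p = 2.5e-09 and 4.3e-11, limma).

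In each of the FGF, IGF and WNT lists, limma called at least 1 gene in each clone. Their shares were not set against those over all genes, because the lists were drawn up with earlier results known. Of the FGF list, limma called 1 higher and 1 lower of 29 in del-4, and 0 higher and 2 lower of 27 in del-56, where 3 were higher at an unadjusted p under 0.05 and edgeR and DESeq2 called 0 higher. SPRY1, an inhibitor of receptor tyrosine kinase signals, rose in del-4 (log2 1.95, SE 0.0586, adjusted p = 2.9e-14, limma), whereas SPRY4 fell in both clones (-1.28 ± 0.335 and -1.14 ± 0.325 on the log2 scale, SE, adjusted p = 0.0050 and 0.010, limma), in del-56 not without WT replicate 2 (adjusted p = 0.075, limma). SPRY2, another inhibitor of this family, fell in del-56 (log2 -2.38, SE 0.277, adjusted p = 4.8e-06, limma). The 1 FGF gene higher in del-4 was 2 by edgeR, by DESeq2 and without WT replicate 1, and the 1 lower was 2 without del-4 replicate 1. Of the IGF list, 2 of 10 genes were called higher in del-4 and 1 of 11 in del-56. For del-4 the count was 1 by edgeR, by DESeq2, and without del-4 replicate 2 or WT replicate 1, where IGF1R lay inside the limit of 1. The other gene, IGFBP3, kept its call under every alternative. Its log2 difference in del-4 was at least 1.60 over WT and 2.37 over del-56. For del-56 the count was 0 without del-56 replicate 3 (IGF2, log2 0.98, limma). Of 34 WNT ligands, R-spondins and receptors tested, limma called 1 higher and 1 lower in del-4, while 3 rose in del-56, LGR4 among them. The 1 lower, WNT9B, was not called by edgeR or DESeq2 (adjusted p = 0.43 and 0.72), nor by limma without any one of del-4 replicate 1, del-4 replicate 2 and the 3 WT replicates. The 1 higher in del-4 was 2 without del-4 replicate 2 and 3 without WT replicate 2. LGR4, a receptor for R-spondins, had means of 1504 for WT, 2645 for del-4 and 3219.9 for del-56.

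Genes of axon guidance and neural adhesion, with 7 members, and of the neuronal cytoskeleton, vesicles and transmission, with 11, made up 34.0% of the 53. These groups were set from textbook roles after the genes were known, so their sizes are a description. TENM1, a teneurin that joins cells across synapses, had 238, 329 and 276 in the WT clone, 2401, 2461 and 1945 in clone del-4 and 1395, 1351 and 1247 in clone del-56. All del-4 values were above all del-56 values (log2 difference 0.76, SE 0.0816, adjusted p = 2.2e-06, limma). NTNG1, a membrane-anchored netrin, had 860.1, 1069 and 1076 in the WT libraries, 2981, 3017 and 3181 in those of del-4 and 3499.8, 3431 and 3552 in those of del-56. EPHB2, a receptor for B ephrins, had 1218, 1202 and 1172 in WT against 2656, 2637 and 2833 for del-4 and 2998, 2990.0 and 2823 for del-56, and its deletion clones overlapped.

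PLXND1, a semaphorin receptor, and FLRT2, which repels axons through UNC5 receptors, were higher in del-4 than in del-56. PLXND1 had 137, 90.7 and 128 for WT, 532, 434 and 495 for del-4 and 334, 309 and 332 for del-56. FLRT2 had 52.2, 75.3 and 50.9 in the WT clone, 373, 372 and 412 in clone del-4 and 179, 155 and 184 in clone del-56. The ratio of means over WT of FLRT2 was 6.48 for del-4 and 2.91 for del-56. BRINP3, a gene of the nervous system, had deletion values from 227 to 300.3 and WT values from 101 to 109. L1CAM, the founding member of the L1 adhesion family, was low throughout, with 16.4, 10.6 and 17.9 in the WT libraries, 41.3, 55.8 and 42.2 in those of del-4 and 65.8, 44.2 and 55.8 in those of del-56.

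The other genes of these families did not share one direction. Of 68 other axon guidance genes tested, 5 were called higher and 3 lower in del-4, and 2 higher and 3 lower in del-56. NTN1, the secreted netrin, and SEMA6B rose in both clones, with log2 differences of 1.51 ± 0.404 and 1.35 ± 0.401 for NTN1 and 1.22 ± 0.325 and 1.82 ± 0.323 for SEMA6B (SE; adjusted p = 0.0058, 0.013, 0.0056 and 3.0e-04, limma). Single libraries decided part of these calls. NTN1 had an adjusted p of 0.056 in del-4 without del-4 replicate 3, and 0.068 and 0.062 in del-56 without WT replicate 1 and without WT replicate 2 (limma), and SEMA6B in del-4 had a log2 difference of 0.91 without WT replicate 2. The count of 5 higher in del-4 was 3 without del-4 replicate 3, that of 3 lower was 1 without del-4 replicate 2 or WT replicate 3, and that of 2 higher in del-56 was 1 without WT replicate 1. EPHA3, an ephrin receptor of the A class, fell from 8865 in WT to 3868 in del-4 and 4148 in del-56 (adjusted p = 2.4e-13 and 1.1e-11, limma). Of other neural adhesion genes, 1 was higher and 3 lower of 17 in del-4, and 2 were higher and 4 lower of 18 in del-56. The count higher in del-4 was 2 without del-4 replicate 1 or WT replicate 3 and 0 without del-4 replicate 3, and that in del-56 was 1 without del-56 replicate 3. TENM4, a relative of TENM1, fell in both (307 in WT against 31.96 for del-4 and 45.6 for del-56; adjusted p = 5.2e-08 and 5.6e-08, limma), as did NCAM2 (32036, 13091 and 15199.6; adjusted p = 1.4e-12 and 4.3e-11, limma).

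SYT4, a synaptotagmin of vesicle trafficking, was the most abundant of the 53 genes, also per kb of exon. It had 40162, 37769 and 37156 normalized counts in WT, 150896, 142547 and 145071 for del-4 and 116650.2, 116249.6 and 117911 for del-56. Per kb of exon, SYT4 reached 33930.2 for del-4, 27144 for del-56 and 8905 for WT, against 3140.0, 3132 and 1174 for the next gene, TUSC1. All del-4 values of SYT4 exceeded all del-56 values (log2 difference 0.32, SE 0.0409, adjusted p = 1.6e-05, limma). GNAI1, an inhibitory G protein alpha subunit, had 5187, 4725 and 5290.2 for WT, 14894, 15804 and 15151 for del-4 and 22877, 23590.5 and 23304 for del-56, with del-56 the higher deletion clone (log2 difference -0.61, SE 0.0362, adjusted p = 1.1e-09, limma).

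MAP2, the microtubule protein of dendrites, had 3888, 3664 and 3695 in the WT clone, 10576, 10408 and 10693 in clone del-4 and 11312, 11353 and 11646 in clone del-56. NEFL, the light neurofilament chain, had 466, 425 and 456 in the WT libraries, 1350.3, 1204 and 1309.8 in those of del-4 and 1362, 1371 and 1371 in those of del-56. For both genes the deletion clones lay within 1.2-fold of each other. The glutamate receptor subunit GRIN3A had a mean of 2701 in WT against 6596 for del-4 and 6147 for del-56. RTN1, a reticulon of neuroendocrine cells, RIMS4, a RIM protein of the release site, KCNH8, a potassium channel, and PALM, a membrane protein of neurites, had mean ratios over WT between 2.10 and 3.11 in either clone.

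SLC6A3, the dopamine transporter, had the highest ratio of means over WT in del-4 of any gene with WT reads. It had 27.1, 21.2 and 26.4 for WT, 417, 378 and 388 for del-4 and 181, 223 and 218 for del-56, or 15.8 and 8.33 times the WT mean. Both deletion clones were far above WT, and del-4 was the higher of them (log2 difference 0.93, SE 0.143, adjusted p = 1.3e-04, limma). ARC, an immediate early gene of synaptic plasticity, had 19.3, 11.6 and 15.1 in the WT clone, 69.1, 79.7 and 72.3 in clone del-4 and 67.7, 76.3 and 53.4 in clone del-56. Of 21 other immediate early genes tested in del-4, limma called EGR2 higher and NR4A2 lower, but EGR2, at a mean of 7.29 in del-4, was not called by edgeR or DESeq2, nor by limma without WT replicate 2, WT replicate 3 or any one del-4 replicate. In del-56 limma called 0 of 20, where 6 had an unadjusted p under 0.05, all 6 lower than in WT, and edgeR and DESeq2 called 0. In del-4, 7 had an unadjusted p under 0.05 (limma), 1 higher and 6 lower than in WT.

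Among other genes of the neuronal cytoskeleton and vesicles, 3 were higher and 1 lower in each clone, of 34 tested in del-4 and 35 in del-56. GAD1, which makes the transmitter GABA, rose in both (29.3 in the WT libraries, 112 in those of del-4 and 73.8 in those of del-56; adjusted p = 3.2e-04 and 0.0077, limma), as did UNC13C, a vesicle priming gene (220.1, 505 and 587; adjusted p = 5.1e-06 and 6.2e-07, limma). PRPH, a neurofilament relative, fell in both (139, 18.5 and 40.8; adjusted p = 7.6e-07 and 7.2e-05, limma). Without WT replicate 2, the log2 difference of GAD1 in del-56 was 0.97. Of the neuroendocrine prostate markers, SCG3 was called higher in del-4 (log2 2.08, SE 0.659, adjusted p = 0.017) and PEG10 lower in del-4 and del-56 (adjusted p = 2.9e-04 and 3.4e-06, limma), of 10 tested in del-4 and 11 in del-56. SCG3 lost the adjusted p without any one of del-4 replicate 1, del-4 replicate 3, WT replicate 1 and WT replicate 2 (adjusted p = 0.056, 0.081, 0.060 and 0.065, limma). Of the list of SALL, neural crest and glial factors, 5 of 16 were called higher in each clone, against 1 lower in del-4 and 2 in del-56. SALL2 was called lower than WT in both clones. Its fall was far larger for del-56, at least 7.91 on the log2 scale, and that call was kept under every alternative. For del-4 the count lower was 0 without del-4 replicate 2 or WT replicate 2, and in del-56 the 5 higher were 2 without del-56 replicate 1 or WT replicate 2 and 3 by edgeR and by DESeq2. MSI1, an RNA-binding protein of neural stem cells, had 289 in WT against 991 for del-4 and 637 for del-56 (adjusted p = 3.8e-09 and 1.1e-05, limma), with a log2 difference of 0.99 in del-56 without WT replicate 2, and SALL4 had 13.5, 48.4 and 73.2 (adjusted p = 0.0024 and 2.6e-04, limma).

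Over all 20 lists, 36 of 426 genes outside the 53 were called higher and 21 lower in del-4, and 28 of 424 were called higher and 25 lower in del-56. Of these 57 calls in del-4, 20 were lost when some 1 library was left out and 7 by edgeR or DESeq2, and of the 53 calls in del-56 these numbers were 18 and 5. The lists were drawn up with earlier results of these data known, so these shares are not set against those over all genes.

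Of the 5 genes of actin, adhesion and junctions, AMOTL1, an angiomotin of cell junctions, differed most between the deletion clones. It had 532, 581 and 508 for WT, 1500.1, 1436 and 1569 for del-4 and 4142, 4235 and 4481 for del-56. PARVA, which links integrin-linked kinase to actin, had 592, 745 and 643 in the WT clone, 2572, 2285 and 2417 in clone del-4 and 3744, 4051 and 4080.4 in clone del-56. FBLIM1, a filamin-binding protein of focal adhesions, had 239.7, 305 and 238 in the WT libraries, 1496, 1423 and 1575 in those of del-4 and 943, 772 and 826 in those of del-56. AMOTL1 and PARVA were thus higher in del-56 and FBLIM1 in del-4, with no overlap between the deletion clones in any of the 3. Of 26 other genes of integrin-linked kinase and focal adhesions, limma, edgeR and DESeq2 called 0 against WT in either clone, while 12 (del-4) and 15 (del-56) reached an unadjusted p under 0.05.

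PDZD4, a PDZ domain gene, had means of 627, 1876 and 1894 in WT, del-4 and del-56. TMSB15C, an actin-binding beta thymosin, had 153, 135 and 139.5 in WT against 376, 462 and 389.7 for del-4 and 352, 578 and 434 for del-56. Its near-identical copy TMSB15B lies 97.2 kb away and was called higher in both clones (adjusted p = 3.3e-05 and 5.3e-05, limma). Reads could be shared between the copies, so neither value is certain alone.

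The kinases and cell death genes were DAPK1, HRK and SGK2. DAPK1, the death-associated kinase, had 222, 218 and 298 for WT, 1500.1, 1283 and 1278 for del-4 and 1311, 1064 and 1009 for del-56. HRK, a BH3 protein that promotes apoptosis, had 34.8, 34.7 and 42.4 in the WT clone, 239, 159 and 191 in clone del-4 and 109, 142 and 99.4 in clone del-56. SGK2, a kinase related to AKT, had 56.05, 59.8 and 126 in the WT libraries, 305, 263 and 303 in those of del-4 and 346, 422 and 433 in those of del-56. HRK was higher in del-4 (log2 difference 0.74, SE 0.210, adjusted p = 0.018) and SGK2 in del-56 (log2 difference -0.46, SE 0.137, adjusted p = 0.025, limma), while the difference did not pass for DAPK1 (log2 difference 0.27, SE 0.0950, adjusted p = 0.056, limma). Of the other 11 death-associated kinases and BH3 genes tested, limma, edgeR and DESeq2 called 0 in either clone, and 7 in each had an unadjusted p under 0.05.

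ECHDC1, which removes ethylmalonyl-CoA formed as a side product of fatty acid synthesis, had the highest ratio of lowest deletion to highest WT value among the genes with at least 1000 in every deletion library. It had 298, 353 and 373 in WT against 2673, 2333 and 2448 for del-4 and 2615, 2931 and 3127 for del-56, or 7.28 and 8.47 times WT. That ratio was 6.25. MEST, an imprinted gene of the hydrolase fold, had 1494, 1283 and 1267 for WT, 3633, 3808 and 3817 for del-4 and 3043, 3192 and 3132 for del-56. TTR, the carrier of thyroxine and of retinol-binding protein, had 469.7, 486 and 483 in the WT clone, 1351, 1304 and 1447 in clone del-4 and 1498, 1644 and 1586 in clone del-56. Among elongases and acyl-CoA synthetases, 4 of 18 were called higher and 2 lower in each clone, and ELOVL4, in del-56 at a log2 difference of 0.88 without WT replicate 2, was higher (67.97 in the WT libraries, 395 in those of del-4 and 143 in those of del-56) while ELOVL6 was lower (5761, 2156 and 2759.9).

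PLA2G4A, the phospholipase that releases arachidonic acid, had 57.98, 44.4 and 47.1 in WT against 206, 175 and 195 for del-4 and 126, 127 and 129 for del-56. PGLYRP2, an amidase that cuts peptidoglycan, had 43.5, 44.4 and 16.97 for WT, 125, 133 and 92.4 for del-4 and 149, 179 and 149 for del-56. TMPRSS4, a serine protease of the cell membrane, had 48.3, 46.3 and 47.1 in the WT clone, 133, 163 and 181 in clone del-4 and 179, 211 and 216 in clone del-56. The WT values of TMPRSS4 lay close together, whereas 1 WT library of PGLYRP2 stood below the others. UBE2L6, the enzyme that conjugates the interferon-induced modifier ISG15, had means of 372, 1034 and 830.4. Of 34 other interferon response genes tested, 3 were called higher and 2 lower in del-4 and 2 higher and 4 lower in del-56. IFITM2 and OASL fell in both clones (limma), IFITM2 from 1798 to 232 and 138. BST2 and PARP14 were called higher in both, but in del-4 BST2 had an adjusted p of 0.052 and 0.051 without WT replicate 2 and WT replicate 3, and PARP14 a log2 difference of 0.99 without WT replicate 2 (limma).

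Of the remaining genes, ANKRD29, an ankyrin repeat gene, had 86.97, 84.9 and 94.3 in the WT libraries, 589.7, 572 and 525 in those of del-4 and 748, 672 and 689 in those of del-56. C2orf80 had 9.66, 21.2 and 6.60 in WT against 99.9, 128 and 125 for del-4 and 141, 177 and 129 for del-56. Little is established about the function of either. TUSC1, a candidate tumor suppressor, had means of 1732, 4635 and 4624 in WT, del-4 and del-56. SH2D3A, an SH2 domain adapter, and OR56A3, an olfactory receptor gene, had ratios over WT between 2.30 and 2.97.

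ENSG00000197991 has no symbol in the annotation used. It had 446, 421 and 426 for WT, 5149, 4813 and 4705 for del-4 and 1056, 1145 and 1199 for del-56. It overlaps the protocadherin gene PCDH20 on the same strand of chromosome 13, and PCDH20 had 448, 424 and 428 in the WT clone, 5182, 4854 and 4762 in clone del-4 and 1061, 1153 and 1208 in clone del-56. Both rows therefore count nearly the same reads, and this gene stayed among the 53 because its row carries no protocadherin symbol.

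The rule set no direction between the deletion clones, but it was applied to the same values, so the tests between them were not free of the choice of genes. At an adjusted p under 0.05 and a log2 difference beyond 1, limma called 2 of the 53 genes higher and 1 lower for del-4 against del-56, beside 1.38% and 1.55% of all 17447 genes tested. The genes were ENSG00000197991 (log2 difference 2.11, SE 0.0607, adjusted p = 4.8e-14, limma), FLRT2 (log2 difference 1.16, SE 0.147, adjusted p = 1.7e-05, limma) and AMOTL1 (log2 difference -1.51, SE 0.0556, adjusted p = 1.6e-12, limma). At the adjusted p alone, 27 of the 53 passed, 14 higher and 13 lower in del-4, and the 13 were 8 without del-4 replicate 3, del-56 replicate 2 or del-56 replicate 3. Among all genes tested, 10.9% were higher and 9.0% lower in del-4, 19.9% in all, and among the genes with at least 30 in every deletion library the share was 23.3%. The libraries of the deletion clones did not overlap in 32 of the 53 genes, 14 with del-4 above and 18 with del-56 above, against 34.7% of all genes tested.

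The sizes of these differences were modest. The means of the deletion clones lay within 1.2-fold of each other in 22 genes and more than 2-fold apart in 3. The median log2 difference over the 53 genes was -0.01, and the median of its size was 0.32. After the 3 called genes, the largest differences were those of RBPMS2, SLC6A3 and FBLIM1, higher in del-4, and of NPR3, PARVA and GNAI1, higher in del-56. TBX2 did not differ by the test (log2 difference 0.14, SE 0.298, adjusted p = 0.8, limma), though at its low counts an SE of this size would leave a moderate difference unseen. The median coefficient of variation between the 3 cultures of a clone was 7.02% for del-4, 6.64% for del-56 and 11.6% for WT.

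**Figure D4:**
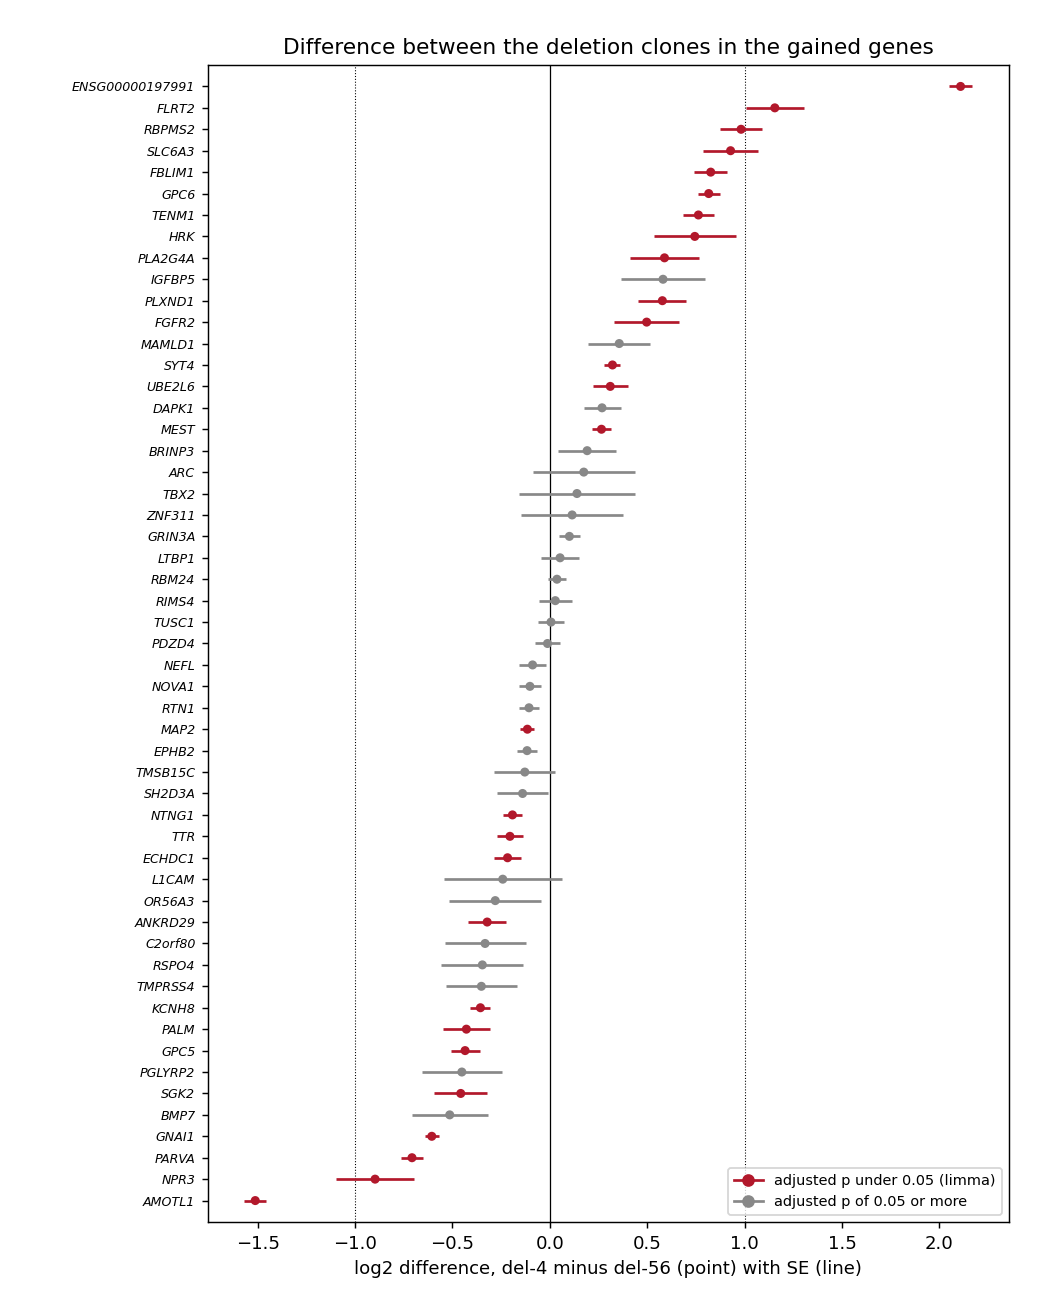
Log2 difference between del-4 and del-56 for each of the 53 genes, with points for the limma estimate and lines for 1 SE on each side. Red marks an adjusted p under 0.05, and dotted lines mark differences of 1 and -1; ENSG00000197991 and FLRT2 lie beyond the line on the del-4 side, AMOTL1 beyond it on the del-56 side, and the other 50 genes lie between.

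The 53 genes lay on 19 chromosomes, so that no single region held most of them. Chromosomes 1, 11 and X held 5 each, chromosomes 2 and 20 held 4 each, and no other held more than 3. Beside the shares of the genes with at least 30 in every deletion library, the X chromosome held 9.43% of the 53 against 3.72%, chromosome 20 held 7.55% against 2.68%, chromosome 13 held 5.66% against 1.58% and chromosome 18 held 5.66% against 1.40%. With so few genes on each, these shares were not tested. The 3 genes on chromosome 13 were GPC5, GPC6 and ENSG00000197991, whose reads are nearly those of PCDH20, a gene left out by name. PDZD4 and L1CAM lay 30.9 kb apart on the X chromosome, and GPC5 and GPC6 were the only other pair within 1000 kb. The gained genes were also long. Their median span from start to end was 51.5 kb against 34.2 kb for the genes with at least 30 in every deletion library, and 39.6% against 20.5% spanned more than 100 kb.

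The 106 nearest genes on either side with a mean of at least 10, of which 101 were distinct, had median log2 ratios over WT of 0.07 (del-4) and 0.11 (del-56), near the median of about 0 over all genes. Of the 106, 14 had a log2 ratio above 0.5 in both clones, or 13.2% against 3.97% of all 15353 genes with a mean of at least 10. RIT2, a neuronal GTPase beside SYT4, had means of 103 in the WT libraries, 267 in those of del-4 and 272 in those of del-56. UNC80, a subunit of a sodium leak channel beside MAP2, had 58.1, 134 and 117. ADAM7 beside NEFL had 755, 1521 and 2895, and DSG2, a desmoglein beside TTR, had 33033, 53729 and 54240.2. Most neighbours thus had levels close to WT, and the genes named here were higher in both clones. The 14 also include TMSB15B, whose reads could be shared with TMSB15C, and their share was not tested.

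In the annotation 8 of the 53 genes overlap another gene of the table, and whether reads were counted by strand is not given in the sources used here. RIMS4 overlaps KCNK15 on the opposite strand, and KCNK15 had 66.7 in WT against 164 for del-4 and 162 for del-56. MEST overlaps COPG2 and TENM1 overlaps STAG2, both also on the opposite strand, and COPG2 and STAG2 had means close to WT in both clones (5418, 5816 and 5553 for COPG2, and 14608, 16501 and 15676 for STAG2). SGK2 and L1CAM overlap unnamed genes on the same strand, whose means for WT, del-4 and del-56 were 70.9, 127 and 151 beside SGK2 and 38.4, 44.1 and 52.1 beside L1CAM. Reads in the shared sequence cannot be told apart.

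Promoters were compared over the window from 250 bases before to 50 after the start, from RefSeq on GRCh38.p14, which held an entry for 39 of the 53 genes. The entries of 3 genes are shown because they differ in CpG content and carry large values above, with each CpG in capitals. ECHDC1 (chr6:127343560-127343859, minus strand) had the highest such ratio among abundant genes and holds 18 CpGs, SYT4 (chr18:43277441-43277740, minus strand) had the highest level and holds 11, and FGFR2 (chr10:121598395-121598694, minus strand) holds 52.
ECHDC1: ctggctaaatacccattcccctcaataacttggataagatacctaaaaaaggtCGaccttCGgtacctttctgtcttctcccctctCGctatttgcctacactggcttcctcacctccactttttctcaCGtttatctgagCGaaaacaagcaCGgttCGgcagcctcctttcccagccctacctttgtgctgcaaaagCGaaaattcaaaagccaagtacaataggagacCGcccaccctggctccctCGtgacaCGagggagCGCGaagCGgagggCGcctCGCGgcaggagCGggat
SYT4: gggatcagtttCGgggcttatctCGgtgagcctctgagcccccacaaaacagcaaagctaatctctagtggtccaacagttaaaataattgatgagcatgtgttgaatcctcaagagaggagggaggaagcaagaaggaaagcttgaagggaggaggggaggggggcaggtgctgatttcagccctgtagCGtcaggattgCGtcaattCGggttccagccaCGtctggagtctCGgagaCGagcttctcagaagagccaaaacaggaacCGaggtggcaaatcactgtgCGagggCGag
FGFR2: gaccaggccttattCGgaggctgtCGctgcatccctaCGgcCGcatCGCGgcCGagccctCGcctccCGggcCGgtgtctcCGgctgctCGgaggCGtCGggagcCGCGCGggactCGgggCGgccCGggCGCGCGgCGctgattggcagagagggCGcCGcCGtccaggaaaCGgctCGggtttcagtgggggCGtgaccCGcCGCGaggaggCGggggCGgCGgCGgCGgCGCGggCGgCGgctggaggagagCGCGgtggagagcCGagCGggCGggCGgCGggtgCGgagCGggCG

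The promoters of the gained genes held fewer CpGs at the median than those of other expressed genes. The median number of CpGs in the window was 19 for the 39 gained genes, 22 for all 15321 promoters and 26 for the 10732 promoters of genes with at least 30 in every deletion library. A ratio of observed to expected CpG of at least 0.6 was found in 64.1%, 66.6% and 81.5% of these promoters. The differences were not tested.

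Counted on both strands, none of these motifs was found in a larger share of the gained genes than of all promoters. On both strands, the GC box GGGCGG was found in 22 of the 39 promoters (56.4%, against 59.3% of all) and the E-box CANNTG in 23 (59.0% against 64.4%). The TATA box TATAAA was found in 3 (7.69% against 9.61%) and the full cyclic AMP response element TGACGTCA in 1 (2.56% against 2.64%). The T-box element AGGTGTGA was found in none, against 0.914% of all promoters. Among promoters of genes with at least 30 in every deletion library, the shares were 69.0% for GGGCGG, 60.6% for CANNTG and 5.79% for TATAAA. The gained genes lay above that share for TATAAA, with 3 promoters, and below it for GGGCGG and CANNTG. On the gene strand alone, GGGCGG was found in 17 of the 39, a share slightly above the 41.0% of all promoters. These differences were not tested. Each match is a match of letters in this window only.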

How the data were processed

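RNA was sequenced from 3 cultures each of del-4, del-56 and WT. By the submitters' processing notes and the study's methods, the authors trimmed reads with Trim Galore 0.6.5, aligned them to GRCh38 with STAR 2.71a and counted them on protein-coding genes of GENCODE 38 with bedtools 2.27.1 multicov. The deposited signal values are read counts that the authors divided by 1 DESeq2 size factor per library. All values were whole multiples of 1 step per library, so reads were recovered (100% whole within a relative tolerance of 1e-06). Of the low values of 1 to 20 reads, 83.8% were even, so mates were mostly counted separately, and a floor of 3 reads is near 1 or 2 fragments. Floors cover counting error only. Symbols and positions came from GENCODE 44, which held 19923 of the 19984 identifiers and lacked 61.

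The 53 genes, their groups and the gene lists were chosen with earlier results of these data known. Differences were tested with limma 3.58.1 (R 4.3.3) after adding 1 to the normalized counts and taking log2, over genes of mean at least 1 and Benjamini-Hochberg adjustment over all genes. This scale understates the change of low genes. A gene was called at an adjusted p under 0.05 and a log2 difference beyond 1. Alternatives included edgeR 4.0.16 and DESeq2 1.42.0 on the recovered reads. Genes named singly were those near 0 in WT, the 10 with the highest ratios, the 10 with the highest levels, those called between the deletion clones, those beside a limit of the rule, up to 3 called genes per list, and members of groups set from textbook roles once the genes were known. Genes overlapping or beside these, and listed genes that were not called or lost their call, were named after their values were seen. The called genes named from a list were not always those with the largest difference. Some genes of the luminal marker list and one motif are not reported here. The fit was tested on simulated data.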

Additional observations from a re-analysis of the deposited data

Results flagged for a closer look

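Of the genes gained in both deletion clones, 3 differed between del-4 and del-56 by more than 1 on the log2 scale at an adjusted p under 0.05 (limma), so that their levels against WT differed between the clones. AMOTL1 was lower in del-4 (log2 difference -1.51, SE 0.0556, adjusted p = 1.6e-12, limma), with all del-4 values below all del-56 values. FLRT2 (log2 difference 1.16, SE 0.147, adjusted p = 1.7e-05, limma) and ENSG00000197991 (log2 difference 2.11, SE 0.0607, adjusted p = 4.8e-14, limma) were higher in del-4 in 3 of 3 libraries. The reads of ENSG00000197991 are nearly those of PCDH20. Groups of 3 libraries were too small for a search for single outlying libraries.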

How the results depend on the processing

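The number of genes kept by the rule depended on its fold limit, with 140 genes at 1.5-fold and 12 at 3-fold, and the 12 were among the 53. It was 55 and 51 at limits of 10 and 50 in place of 30, and 45 when libraries were scaled to the same total, all 45 among the 53. The 8 lost were KCNH8, NOVA1, OR56A3, PALM, PGLYRP2, SGK2, SH2D3A and UBE2L6. Leaving out 1 library gave 54 to 65 genes, since a rule on fewer libraries can only add genes, and TBX2 was the 1 gene near 0 in WT each time. Between the deletion clones, the members called were 2 to 3 higher and 1 lower in del-4 when 1 library was left out. At the adjusted p alone, a count chosen after the data were seen, the number higher in del-4 was 11 to 13 and the number lower was 8 to 11 in these fits, and 8 were lower in 1 fit of all 9 libraries, where the cause was not tested. The log2 difference of AMOTL1 lay between -1.55 and -1.48, that of FLRT2 between 1.08 and 1.204 and that of ENSG00000197991 between 2.06 and 2.15 over all alternatives. Libraries of different clones share replicate numbers. Same-numbered libraries deviated together only weakly if at all (correlations from -0.053 to 0.063), so the numbers were not taken to pair them. The correlations with a del-4 library were all positive, at 0.023 to 0.063, while those of del-56 with WT lay between -0.053 and -4.7e-04. With the replicate number as a block, 338 genes were above and 515 below WT for del-4, while for del-56 these counts were 361 and 453, and the members called between the deletion clones stayed 2 and 1 in number. Each main count was set beside its value under each alternative, so that 1 count enters many times. The counts of the rule, of genes near 0 in WT and of promoter motifs were among them. Of these values, 280 moved by at most 1.5 times and 6 moved further. Only 8 of the 20 gene lists were entered in the same way, by their counts against WT, and 44 of those values moved further. The counts of the other lists were not part of the 44. Counts of a few reads limit the lowest genes, TBX2, ZNF311, L1CAM and ARC among them.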

Other observations

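Genes of 2 further families lay beside or were related to the genes gained in both clones. Of 6 CYP4F enzymes, which oxidize fatty acids, limma called 3 higher in del-4 and 1 in del-56. For del-4 the count was 2 by edgeR and 1 without del-4 replicate 2 or WT replicate 2, and CYP4F2 was also lost without del-4 replicate 1 or 3. Without WT replicate 1, the 1 in del-56 was 2. CYP4F8, next to PGLYRP2 with a gap of 116 kb, had 17.4, 5.79 and 7.54 for WT, 23.05, 54.8 and 24.1 for del-4 and 111, 127 and 75.2 for del-56 (log2 3.33, SE 0.420, adjusted p = 1.1e-05 in del-56, limma). In del-4 its adjusted p was 0.016 and it was lost without del-4 replicate 2, WT replicate 2 or WT replicate 3 (adjusted p = 0.11, 0.066 and 0.061, limma). Near GNAI1, CD36, a fatty acid receptor with a gap of 143 kb, had means of 19.2 in the WT clone, 41.3 in clone del-4 and 497 in clone del-56. GNAT3, the gustducin alpha subunit of taste cells, had 1.93, 0 and 3.77 in the WT libraries, 3.84, 0 and 3.01 in those of del-4 and 156, 193 and 164 in those of del-56, and it was called higher in del-56 (log2 6.15, SE 0.534, adjusted p = 2.0e-07, limma).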
